A study of Homo sapiens with 12 samples.

Results

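The transcripts of splicing factors and heterogeneous nuclear ribonucleoproteins (hnRNPs) were examined in Huh7 cells after silencing of FAM111B. The group comprised 78 of the 60666 listed genes, taken by symbol and without pseudogene entries. It held the SRSF, TRA2 and SRRM genes (16 SR and SR-related proteins), 25 hnRNP genes, 12 SNRP genes that encode proteins of the small nuclear ribonucleoproteins (snRNPs), 12 genes of SF3A, SF3B, U2AF and U2SURP, and 13 PRPF genes. Huh7 is an established hepatocellular carcinoma line. Its 3 control libraries came from cells with a control sequence and its 3 shFAM111B libraries from cells with a lentiviral short hairpin RNA, kept as stable lines under puromycin. Hep3B cells are not analysed here. 1 hairpin sequence is given for FAM111B. The study's methods say in general terms that experiments were repeated, but not whether the libraries of a group came from separate cultures, so the p-values measure the spread between these libraries, which may be technical.

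The sequence that the hairpin was designed on is shown because it is the agent that was used against FAM111B. It is a 19-base target, with the bases that would pair with guide bases 2 to 8 in capitals if the guide is its full complement.
shFAM111B: ctgcctagtgaTTCTCATt
In GENCODE release 29 it lies at chr11:59124545-59124563 on the plus strand, in the coding part of exon 4 of 4 of FAM111B. The 19 bases occurred in the annotated transcripts of 1 gene, FAM111B, and in 0 of the 78 splicing factors. The capital bases alone occurred in a transcript of 26 of the 73 tested members, or 8 of 16 SR genes, 9 of 21 hnRNP genes, 2 of 11 SNRP genes, 3 of 12 SF3A, SF3B, U2AF and U2SURP genes and 4 of 13 PRPF genes, against 37.8% of all tested genes with a transcript in this annotation. These matches are a description of letters and were not tested against expression.

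Splicing removes introns in the spliceosome, which is assembled anew on each intron from the U1, U2, U4/U6 and U5 snRNPs. A ring of Sm proteins surrounds the RNA of most of these particles, and a ring of LSM proteins binds U6. U2AF and the SF3A and SF3B complexes choose the 3′ splice site and the branch point, and PRPF proteins drive the later rearrangements. SR proteins mostly bind exons and help splice sites to be used, whereas hnRNPs coat nascent RNA, often oppose them, and also act in RNA export, stability and translation. Many SR and hnRNP genes limit their own expression through exons or introns that send the transcript to nonsense-mediated decay.

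Values are TPM, a share of all transcripts in a library after correction for their length, so they are relative and keep no depth. Differences are those of log2(TPM + 1), shFAM111B minus control, from limma over the 14394 genes that reached 1 TPM in 3 or more libraries. FAM111B was at 7.84, 8.29 and 7.99 TPM in the control libraries and at 0.960, 1.13 and 0.840 TPM in the shFAM111B libraries, 4.58-fold lower (-2.20 ± 0.11 SE on the log2 scale, adjusted p = 6.09e-06). The libraries correlated at 0.969 to 0.984 within groups and at 0.865 to 0.883 between them over the tested genes. All 12 hepatocyte and hepatocellular carcinoma markers were expressed, with a summed level of 33327 to 33615 TPM in control and 50359 to 57236 TPM in shFAM111B libraries. The single markers were divided, since 5 rose and 7 fell (median -0.42). AFP had the largest rise, from a mean of 7274 to 23062 TPM, whereas ALB (-0.63), HNF4A (-1.25) and APOB (-2.27) were among those that fell. Of the other cell types' defining markers, CD3E, VWF, CDH5, KDR, COL1A1 and DCN stayed under 1 TPM, PTPRC reached 2.39 TPM in 1 control library, and no endothelial marker passed the test. The summed levels, control against shFAM111B libraries, were 280 to 288 against 312 to 343 TPM for leukocyte markers (mostly LYZ) and 1.26 to 2.29 against 2.15 to 3.49 TPM for endothelial markers. They were 9.58 to 11.8 against 15.1 to 21.0 TPM for fibroblast markers, with LUM higher (1.01 on the log2 scale), and 119 to 125 against 208 to 244 TPM for cholangiocyte markers. Of the latter, KRT19 rose (28.1 to 34.3 against 145 to 182 TPM), EPCAM rose (29.9 to 35.1 against 39.3 to 45.7 TPM), SOX9 fell (57.9 to 59.0 against 21.5 to 22.5 TPM) and KRT7 was at 0 in all but 1 library (0.380 TPM). The part of these lists in the results was not tested.

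The splicing factors moved in opposite directions by class. Most SR proteins, hnRNPs and several PRPF proteins fell, whereas the small core proteins of the snRNPs rose. Of the 78 members, 73 were tested, and the others (HNRNPCL1, HNRNPCL2, HNRNPCL3, HNRNPCL4 and SNRPN) were listed at 0 in all 6 libraries. At an adjusted p under 0.05, 13 members rose, against 21.1% of all tested genes, and 45 fell, against 50.9%. With the study's rule of at least a 2-fold change and P under 0.05, 4 members were higher (6.82% of all tested genes) and 17 lower (23.7%). The groups did not overlap for 15 members that were higher (22.5% of all tested genes) and 45 that were lower (52.8%). The totals over all 73 members were therefore near or a little to the lower side of the background, and the pattern lay between the families.

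The median difference was -0.56 over the 73 members and -0.36 over all tested genes. It was -0.75 for SR proteins, -0.73 for hnRNPs, -0.65 for PRPF proteins, -0.20 for the SF3A, SF3B, U2AF and U2SURP genes and 0.67 for the SNRP genes. Relative to the median of all tested genes these are -0.39, -0.37, -0.29, 0.16 and 1.03. Because TPM depend on what else is in the library, each count was repeated after median-of-ratios scaling, which moved the median of all genes to 0.03. The split of 2-fold calls then became 9 higher and 7 lower members (2031 and 1799 of all 14394 genes), and 30 members rose and 34 fell (35.8% and 35.2% of all genes). The values below are on the deposited scale, and a passing member whose sign depends on the scaling is named as such. The sign also depends on the scaling for several members that did not pass. Among them are SNRPA1 (-0.26 to 0.40), HNRNPA3 (-0.17 to 0.58), SF3B3 (-0.02 to 0.64) and SRSF8 (-0.05 to 0.60).

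The 7 proteins of the Sm ring (SNRPB, SNRPD1, SNRPD2, SNRPD3, SNRPE, SNRPF and SNRPG) all rose on the deposited scale, against 21.1% of all tested genes. By the 2-fold rule 3 of them were higher, against 6.82%. SNRPE had 120, 157 and 116 TPM in the control and 370, 334 and 393 TPM in the shFAM111B libraries, a 2.80-fold difference (1.49 ± 0.12 SE on the log2 scale, adjusted p = 4.04e-05). SNRPD1 went from 65.9, 68.1 and 64.1 TPM to 165, 165 and 199 TPM (1.40 ± 0.08), and SNRPD2 from 505, 534 and 525 TPM to 1340, 1250 and 1522 TPM (1.39 ± 0.07). Every shFAM111B library was above every control library for these genes. SNRPE lies at chr1:203861603-203870550, SNRPD1 at chr18:21612267-21633524 and SNRPD2 at chr19:45687454-45692569 (GRCh38, GENCODE release 29), so the ring's leading genes are on different chromosomes.

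SNRPG, another ring subunit, had 364, 363 and 339 TPM against 643, 615 and 719 TPM (0.89 ± 0.07), and SNRPF had 92.2, 95.5 and 92.1 TPM against 147, 142 and 157 TPM (0.67 ± 0.05). SNRPB, which encodes SmB/B′, changed least of the ring, from 566, 569 and 616 TPM to 744, 730 and 789 TPM (0.37 ± 0.05), and its sign changed to -0.06 after quantile normalization. SNRPD3 was the least certain. Its libraries held 38.8, 49.6 and 25.6 TPM in control and 55.1, 84.8 and 58.6 TPM in shFAM111B cells (0.81 ± 0.26, adjusted p = 0.0248). The call was lost without control replicate 1 (adjusted p = 0.0515), without control replicate 3 (0.0554), without shFAM111B replicate 2 (0.0685) and without the filter on low values (0.0706). Its exons also overlap GGT1 on the same strand, whose mean went from 9.51 to 38.1 TPM, so reads of the 2 genes may have been divided between them.

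The ring's genes did not start from equal levels. In control cells the order by mean was SNRPB at 584 ± 27.9 TPM (SD, n = 3), SNRPD2 at 521 ± 14.6, SNRPG at 355 ± 14.2, SNRPE at 131 ± 23.0, SNRPF at 93.3 ± 1.93, SNRPD1 at 66.1 ± 2.02 and SNRPD3 with libraries from 25.6 to 49.6 TPM. The libraries of neighbours in this order did not overlap in control cells. In shFAM111B cells SNRPD2, at 1371 ± 139 TPM, stood above SNRPB at 754 ± 31.3 TPM in every library, so the first places were exchanged. SNRPD1, at 177 ± 19.7 TPM, likewise lay above SNRPF in every shFAM111B library.

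The LSM ring, from a list of related genes outside the group, moved the same way. Of its 8 members 7 rose and 0 fell, against 21.1% and 50.9% of all tested genes. The median was 0.71 (0.58 to 1.24 under the 5 other scalings). LSM8, which is particular to the nuclear ring on U6, went from 21.4, 34.5 and 19.7 TPM to 76.6, 73.2 and 75.2 TPM (1.58 ± 0.19). LSM1, which replaces LSM8 in the cytoplasmic ring that takes part in mRNA decay, had 76.2, 72.5 and 70.9 TPM against 71.9, 74.7 and 69.5 TPM and did not pass (-0.02 ± 0.05, adjusted p = 0.721), although its difference reached 0.51 under another scaling.

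**Figure D1:**
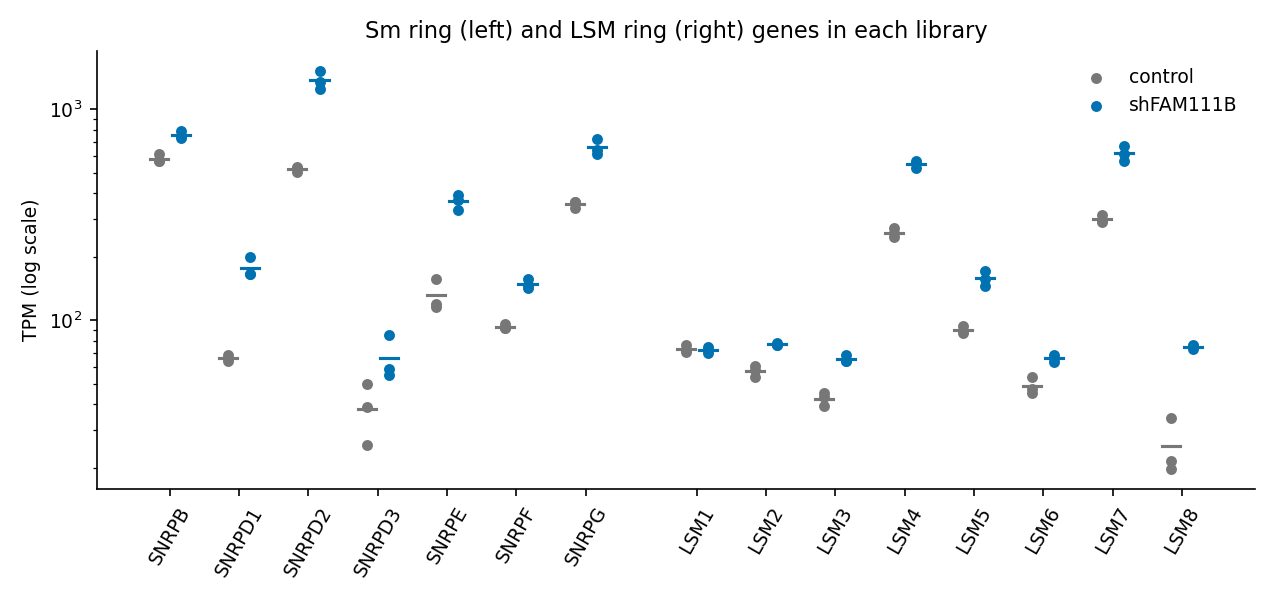
TPM (log scale) of the 7 Sm ring and 8 LSM ring genes in each of the 3 control (grey) and 3 shFAM111B (blue) libraries, with the group mean as a bar. The groups do not overlap for any Sm gene on the deposited scale, LSM1 is the LSM gene whose groups coincide, and the sign of SNRPB changed after quantile normalization.

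The particle-specific SNRP proteins were less uniform. SNRPC, a U1 protein that steadies pairing at the 5′ splice site, rose from 198, 188 and 199 TPM to 294, 290 and 320 TPM (0.63 ± 0.05). SNRPA of U1 had 106, 104 and 110 TPM against 122, 110 and 119 TPM, a difference of 0.13 ± 0.05 that did not pass (adjusted p = 0.0688). SNRPA1 of U2 had 127, 141 and 144 TPM against 121, 125 and 130 TPM (-0.13 ± 0.06, adjusted p = 0.0856). SNRPA passed without shFAM111B replicate 2 (0.17, adjusted p = 0.0208) and SNRPA1 without control replicate 1 (-0.19, adjusted p = 0.0286). The sign of SNRPA1 depended on the scaling (-0.26 to 0.40). SNRPB2, its partner in U2, was the SNRP gene that fell, from 112, 116 and 104 TPM to 63.3, 68.7 and 59.4 TPM (-0.79 ± 0.07). The particle-specific proteins thus held rises, falls and differences that did not pass. Against 21.1% and 50.9% of all tested genes, 3 of 7 genes with SNRNP names rose and 3 fell. The largest rise among them was SNRNP25 of the minor spliceosome (0.87 ± 0.05) and the largest fall SNRNP27 of the tri-snRNP, with at least 59.4 TPM in control and at most 19.7 TPM in shFAM111B libraries (-1.99 ± 0.13).

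Factors that load the Sm ring onto its RNA were near the background. Of 16 genes of the SMN complex and Sm assembly, 4 rose and 8 fell, against 21.1% and 50.9% of all tested genes (median -0.20, from -0.33 to 0.33 under the 5 other scalings, so that its sign depends on the scaling). GEMIN6 rose from 4.30, 5.12 and 7.61 TPM to 12.7, 15.1 and 17.4 TPM (1.29 ± 0.20). SMN2 had 85.9, 66.6 and 77.9 TPM against 29.5, 34.3 and 28.4 TPM (-1.29 ± 0.11), but SMN1 is a near-identical copy and the division of reads between the 2 is uncertain.

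Among the U2 recognition factors all 3 SF3A genes fell, against 50.9% of all tested genes. SF3A1 had 47.2, 48.9 and 58.4 TPM in control and 21.7, 23.7 and 22.2 TPM in shFAM111B cells (-1.15 ± 0.09), SF3A2 a difference of -0.69 and SF3A3 one of -0.30, which turned to 0.23 at most under other scalings. U2SURP, an SR-related U2 protein, went from 44.6, 45.2 and 37.2 TPM to 16.0, 16.8 and 15.8 TPM (-1.33 ± 0.09). The groups of these genes did not overlap.

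Among the 6 SF3B genes, 3 rose and 1 fell, against 21.1% and 50.9% of all tested genes. SF3B5, the smallest subunit, rose from 163, 162 and 184 TPM to 326, 316 and 371 TPM (0.99 ± 0.08), just under the 2-fold rule. SF3B2 rose from 108, 107 and 110 TPM to 157, 155 and 161 TPM (0.54 ± 0.04), and SF3B6, which contacts the branch point, from 178, 161 and 156 TPM to 203, 212 and 201 TPM (0.31 ± 0.06). SF3B4 fell from 108, 113 and 112 TPM to 69.3, 65.2 and 61.3 TPM (-0.76 ± 0.06). SF3B1, the scaffold of the complex and a gene often mutated in cancer, had 103, 101 and 98.3 TPM against 101, 111 and 72.1 TPM. Its difference of -0.11 ± 0.15 did not pass (adjusted p = 0.522), shFAM111B replicate 3 stood apart from the other libraries, and without it the difference was 0.07. SF3B3 did not pass either (0.11, adjusted p = 0.119).

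U2AF1 and U2AF2, which form the heterodimer at the 3′ splice site, differed. U2AF2, the polypyrimidine tract subunit, fell from 143, 151 and 168 TPM to 106, 105 and 103 TPM (-0.55 ± 0.06). U2AF1, which reads the AG, had 102, 90.5 and 105 TPM against 105, 103 and 109 TPM, with overlapping groups (0.10 ± 0.06, adjusted p = 0.210).

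SR and SR-related genes mostly fell, 12 of 16 at the adjusted threshold (50.9% of all tested genes) and 6 by at least 2-fold (23.7%), and 1 rose. The largest fall of any member was that of SRRM1, a coactivator that bridges SR proteins and the spliceosome. It had 70.5, 74.7 and 63.5 TPM in control and 14.8, 15.0 and 12.3 TPM in shFAM111B libraries, 4.71-fold lower (-2.24 ± 0.10, adjusted p = 3.87e-06). SRSF11 went from 93.1, 83.5 and 82.1 TPM to 21.3, 25.4 and 19.4 TPM (-1.93 ± 0.10), and SRSF10, an SR protein that can act as a repressor, from 120, 109 and 112 TPM to 36.6, 37.8 and 39.3 TPM (-1.56 ± 0.06). For each of the 12 genes the groups did not overlap and the sign was negative under each of the 5 other scalings.

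SRSF1, a much studied SR protein with oncogenic activity in several tumours, fell from 171, 159 and 154 TPM to 67.4, 71.4 and 69.9 TPM (-1.20 ± 0.06). SRSF2 had 362, 335 and 358 TPM against 170, 160 and 167 TPM (-1.08 ± 0.05). TRA2B, an exonic enhancer protein, fell less, from 142, 158 and 154 TPM to 92.4, 102 and 95.5 TPM (-0.64 ± 0.06). SRSF9, the closest relative of SRSF1, was the SR gene that rose, from 123, 133 and 138 TPM to 158, 166 and 158 TPM (0.29 ± 0.05, adjusted p = 0.00239).

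SRSF3, SRSF8 and SRRM2 did not pass. SRSF3, one of the smallest SR proteins, had 280, 286 and 281 TPM against 253, 294 and 250 TPM (-0.09 ± 0.07, adjusted p = 0.266). It passed without shFAM111B replicate 2 (-0.16, adjusted p = 0.0111). SRRM2, a scaffold of nuclear speckles, had 238, 238 and 259 TPM against 274, 236 and 311 TPM (0.15 ± 0.10, adjusted p = 0.208), and passed without the same library (0.25, adjusted p = 0.0191). In that library SRSF3 was the highest and SRRM2 the lowest of the shFAM111B group. Of 8 kinases and importers that phosphorylate or carry SR proteins, 6 fell and 1 rose, against 50.9% and 21.1% of all tested genes. Under the 5 other scalings 3 to 6 fell and 1 to 3 rose. SRPK2 fell from 26.5, 23.5 and 23.4 TPM to 8.36, 8.21 and 6.95 TPM (-1.53 ± 0.10), and CLK3 rose (0.57 ± 0.08).

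Of the 21 tested hnRNP genes 18 fell and 1 rose, against 50.9% and 21.1% of all tested genes, and 6 fell by at least 2-fold, against 23.7%, so the count of large falls was near the background. HNRNPH1, which binds G-rich elements, went from 655, 606 and 641 TPM to 221, 234 and 195 TPM (-1.55 ± 0.07). HNRNPUL1 went from 138, 136 and 143 TPM to 51.2, 49.6 and 45.8 TPM (-1.49 ± 0.06), and HNRNPK, a poly(C)-binding protein, from 528, 503 and 503 TPM to 201, 209 and 192 TPM (-1.35 ± 0.05). HNRNPU, a scaffold of chromatin and nuclear RNA, fell from 376, 366 and 355 TPM to 176, 195 and 166 TPM (-1.03 ± 0.07). The groups did not overlap for the 18 genes that fell.

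HNRNPA1, HNRNPA2B1 and HNRNPC fell less than HNRNPH1, HNRNPUL1, HNRNPK and HNRNPU. HNRNPA1, the most abundant member in control cells, had 1530, 1626 and 1487 TPM against 1198, 1275 and 1105 TPM (-0.38 ± 0.06). HNRNPA2B1 had 603, 579 and 561 TPM against 388, 432 and 361 TPM (-0.56 ± 0.07), and HNRNPC, which guards introns against cryptic exons, 696, 692 and 686 TPM against 568, 592 and 572 TPM (-0.26 ± 0.04). HNRNPA1 and HNRNPC were near the median of all tested genes, and with HNRNPAB and HNRNPDL they had positive differences, of at most 0.16, 0.27, 0.19 and 0.03, under at least 1 other scaling. HNRNPA3, a close relative of HNRNPA2B1, had 304, 313 and 296 TPM against 304, 315 and 324 TPM and did not pass (0.04 ± 0.04). HNRNPA1L2, at 3.06 to 7.01 TPM, did not pass either (0.42 ± 0.23, adjusted p = 0.141), but did without control replicate 3 (0.63, adjusted p = 0.0351).

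HNRNPUL2 was the hnRNP that rose, from 7.71, 6.99 and 3.88 TPM to 19.3, 17.8 and 14.5 TPM (1.37 ± 0.23, adjusted p = 0.00130). It lies at chr11:62712630-62727472 and shares exons on its strand with the readthrough gene HNRNPUL2-BSCL2, which held 37.0 TPM in control and 37.3 TPM in shFAM111B cells on average, more than HNRNPUL2 itself, so its value is uncertain. HNRNPH2 (-1.16) is uncertain in the same way, since it shares exons with the readthrough gene RPL36A-HNRNPH2, whose mean went from 59.4 to 246 TPM. Without HNRNPUL2, the summed hnRNP level went from 6875 ± 114 to 4435 ± 201 TPM (SD, n = 3).

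Splicing regulators outside the families mostly fell as well. Of 35 tested genes on a list of other alternative splicing regulators, 27 fell and 2 rose, against 50.9% and 21.1% of all tested genes. Their median was -1.03 (-1.16 to -0.49 under the 5 other scalings). The median of their longest transcripts was 5119 nucleotides, and all tested genes of 4000 to 8000 nucleotides had a median difference of -0.78. The part of length in the falls of this list was not tested. QKI, a regulator of alternative exons and circular RNAs, had 42.4, 35.7 and 34.5 TPM against 5.41, 6.99 and 5.43 TPM (-2.47 ± 0.12). LUC7L, a U1-associated factor, rose from 27.9, 31.4 and 29.1 TPM to 48.1, 51.8 and 52.4 TPM (0.77 ± 0.07). The sign of both genes held under the 5 other scalings.

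The 13 PRPF genes fell in 8 cases and rose in 0, against 50.9% and 21.1% of all tested genes, and 3 fell by at least 2-fold, against 23.7%, so the falls were near the background. PRPF38B went from 25.6, 22.5 and 21.7 TPM to 7.13, 8.51 and 7.26 TPM (-1.49 ± 0.10), and PRPF39, a U1-associated protein, from 21.7 ± 0.422 TPM (SD, n = 3) to 8.51, 8.27 and 7.55 TPM (-1.32 ± 0.08). Both had shFAM111B libraries well under the lowest control library.

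Of the PRPF proteins of the tri-snRNP, PRPF8, PRPF6, PRPF31 and PRPF3 did not pass the test, whereas PRPF4 fell. PRPF8, which holds the catalytic centre, had 105, 112 and 115 TPM against 115, 107 and 116 TPM (0.02 ± 0.06, adjusted p = 0.722), and its sign changed to -0.11 after removal of mitochondrial and short non-coding RNA from the total. PRPF6, PRPF31 and PRPF3 differed by -0.01, -0.01 and 0.03. After median-of-ratios scaling PRPF8, PRPF6, PRPF31 and PRPF3 were at 0.47, 0.43, 0.44 and 0.47, so their direction depends on the scaling. PRPF4, the partner of PRPF3 in U4/U6, fell from 43.8, 37.8 and 44.1 TPM to 20.7, 22.6 and 22.2 TPM (-0.91 ± 0.08). PRPF19, the ubiquitin ligase that gives the NTC complex its name, had 317, 312 and 338 TPM against 251, 254 and 277 TPM (-0.30 ± 0.06), with a positive sign of up to 0.23 under other scalings.

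Later and auxiliary parts of the machinery were divided. Of 24 NTC and step factors, 6 rose and 7 fell (median -0.03), with CWC15 at 0.62 and CDC40 at -0.48, but under the 5 other scalings 5 to 20 rose and 2 to 10 fell, and CDC40 ranged from -0.61 to 0.05. Of 18 other snRNP and A complex proteins, 6 rose and 11 fell (median -0.24), with SART1, of the tri-snRNP, going from 32.6, 32.0 and 31.4 TPM to 97.1, 71.4 and 111 TPM (1.49 ± 0.15) and the helicase DDX46 from 53.5, 50.8 and 49.3 TPM to 16.2, 15.7 and 16.7 TPM (-1.60 ± 0.06). Of 8 exon junction complex genes, 4 rose and 4 fell, led by RBM8A (0.70) and CASC3 (-1.36). Of 7 minor spliceosome proteins, 3 rose and 1 fell, led by SCNM1 (0.92). Over all 131 tested genes of the 9 lists, 36 rose and 67 fell, against 21.1% and 50.9% of all tested genes, with a median of -0.19, so the falls were at the background. Outside the LSM ring, the other alternative regulators, the SR kinases and the minor spliceosome, the sign of a list's median depended on the scaling.

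Summed over genes, the 12 SRSF genes held 1888, 1863 and 1863 TPM in control and 1166, 1216 and 1158 TPM in shFAM111B libraries. The hnRNP genes held 6947, 6950 and 6747 TPM against 4437, 4661 and 4257 TPM, a fall of the mean by 35.3%. The Sm ring held 1751, 1836 and 1777 TPM against 3465, 3320 and 3838 TPM, a mean 98.0% higher. These sums are on the deposited scale, and their size depends on the scaling. The median-of-ratios size factors were 1.17 to 1.18 in control and 0.846 to 0.865 in shFAM111B libraries. Division by them makes such falls smaller and such rises larger. No test is given for these sums, since the genes were grouped with results known, and in bulk RNA fewer transcripts per cell and fewer expressing cells cannot be told apart.

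Ratios within a library do not change when a library is multiplied by a factor, although they do under quantile normalization. The Sm ring held 0.252, 0.264 and 0.263 times the hnRNP sum in control libraries and 0.781, 0.712 and 0.902 times in shFAM111B libraries. The hnRNP sum was 3.68, 3.73 and 3.62 times the SRSF sum in control and 3.81, 3.83 and 3.68 times in shFAM111B libraries, ranges that overlap. The SRSF and hnRNP sums thus stood in a like proportion in both groups, while the Sm ring did not keep its proportion to either. The sums of SF3A went from 244 ± 17.6 to 155 ± 3.78 TPM and of SF3B from 766 ± 10.9 to 980 ± 8.02 TPM.

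**Figure D2:**
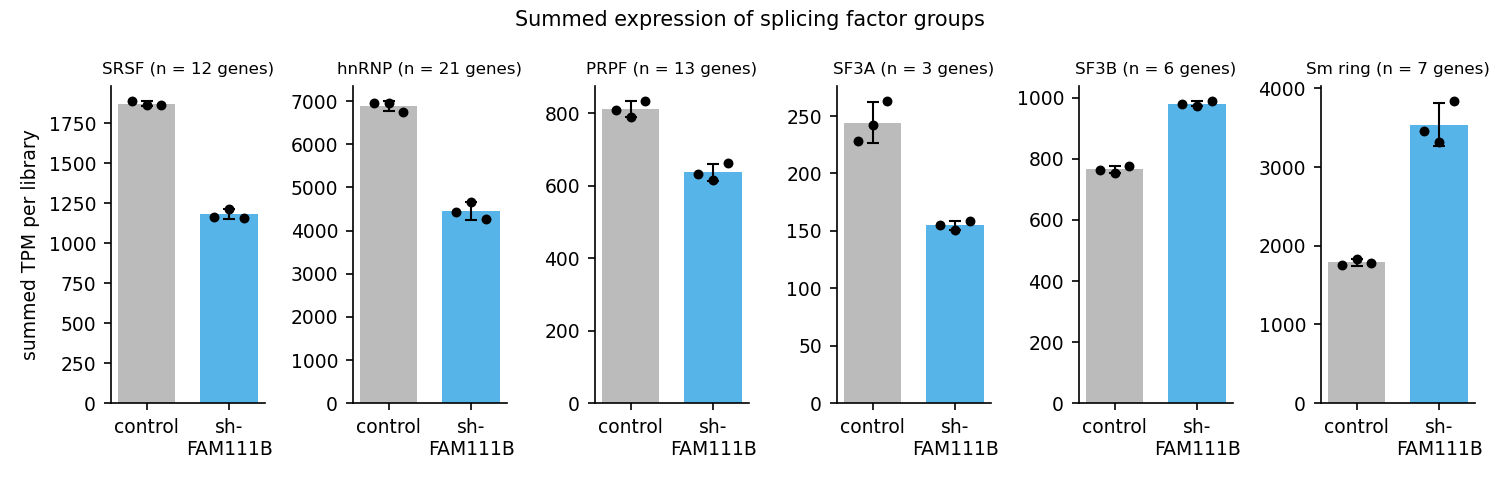
Summed TPM per library (points) of 6 groups of splicing factors, with the mean (bar) and SD (error bar) of 3 control and 3 shFAM111B libraries, each panel on its own axis from 0. The SRSF, hnRNP, PRPF and SF3A sums are lower and the SF3B and Sm ring sums higher in all 3 shFAM111B libraries on the deposited TPM scale. The direction of the PRPF sum depends on the scaling.

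Related members were also set against each other within each library, in 10 pairs written down after their values had been seen. An exact two-sided permutation test of 3 against 3 libraries cannot give less than 0.1, and 9 pairs had this p (0.111 adjusted over the 10 pairs), so none could pass. The log2 ratio of PRPF38A to PRPF38B was -0.33, -0.22 and -0.22 in control and 1.62, 1.30 and 1.68 in shFAM111B libraries. That of SRSF9 to SRSF1 went from -0.47, -0.26 and -0.16 to 1.23, 1.21 and 1.17. That of SF3B5 to SF3B4 went from 0.59, 0.53 and 0.72 to 2.23, 2.28 and 2.60. For these pairs the member of lower TPM in control was the higher one afterwards in the first 2 cases, and in the last the lead widened.

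The ratio of U2AF1 to U2AF2 went from -0.48, -0.74 and -0.68 to -0.01, -0.02 and 0.08, which brought both subunits to similar TPM. The difference of the mean log2 ratio was 0.93 for SNRPA over SNRPB2, 0.97 for PRPF3 over PRPF4, 0.61 for HNRNPA3 over HNRNPA2B1 and 3.03 for HNRNPUL2 over HNRNPUL1, the last with the readthrough limit given above. TRA2A over TRA2B was the pair whose groups overlapped, with a mean of -0.94 ± 0.14 in control and -0.88 ± 0.08 in shFAM111B libraries (SD, n = 3, exact p = 0.7).

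Transcript length moved with these differences, and it sets the SNRP genes apart from the other families. Over all tested genes the median difference was 0.43 for genes whose longest annotated transcript is up to 1000 nucleotides, 0.17 for 1000 to 2000, -0.31 for 2000 to 4000, -0.78 for 4000 to 8000 and -0.94 above 8000. The median longest transcript was 1389 nucleotides for the SNRP genes and 3983, 4139 and 3507 for the SR, hnRNP and PRPF genes. For the SF3A, SF3B, U2AF and U2SURP genes it was 3802.5, a like length with a median difference of -0.20. Against the median of its own length class, the median member was 0.50 higher among SNRP genes, 0.28 lower among SR genes and 0.21 lower among PRPF genes. It was 0.09 lower among hnRNPs and 0.05 lower among the SF3A, SF3B, U2AF and U2SURP genes. The gaps between the SNRP genes and the other families were thus smaller than on the deposited scale. All 7 Sm ring genes were above their class and 9 of 11 SNRP genes. SNRPD1 has an annotated transcript of 4909 nucleotides, and the class of its expressed form may differ.

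After a smooth trend with length and mean expression was taken out of each library, 19 members rose and 40 fell, against 30.5% and 32.3% of all genes in that fit. Of the members, 2 (SNRPD1 and HNRNPUL2) were higher and 6 lower by the 2-fold rule, as were 1369 and 1303 of all 14263 genes. SNRPD1 was then at 1.87, SNRPD2 at 0.92, SNRPE at 0.90, SNRPG at 0.46 and SNRPB at 0.01 (adjusted p = 0.961). SRRM1 was at -1.63, SRSF11 at -1.38, HNRNPH1 at -1.33 and HNRNPK at -1.26. SF3B5 was at 0.11 (adjusted p = 0.720) and SF3B6 at -0.48. The part of length in the deposited differences was not tested further.

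Across the deposited scale and 5 other scalings, 10 members rose in every fit. They were SNRPE, SNRPD1, SNRPD2, HNRNPUL2, SF3B5, SNRPG, SNRPD3, SNRPF, SNRPC and SF3B2. In every fit 28 members fell, of which 8 were SR, 11 hnRNP, 5 PRPF, 3 U2 (U2SURP, SF3A1 and SF3B4) and 1 SNRP genes (SNRPB2). With the length trend removed as a further condition, 8 and 25 remained, without SF3B5 and SNRPC among those that rose. In the single fits 17.6% to 41.6% of all tested genes rose and 29.4% to 54.6% fell. The share of all tested genes kept in every fit was not computed, so these counts describe the members only. The family medians kept their sign for SR, hnRNP and PRPF (negative) and SNRP genes (positive) in all of these fits, whereas that of the SF3A, SF3B, U2AF and U2SURP genes was positive in 3 of them.

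**Figure D3:**
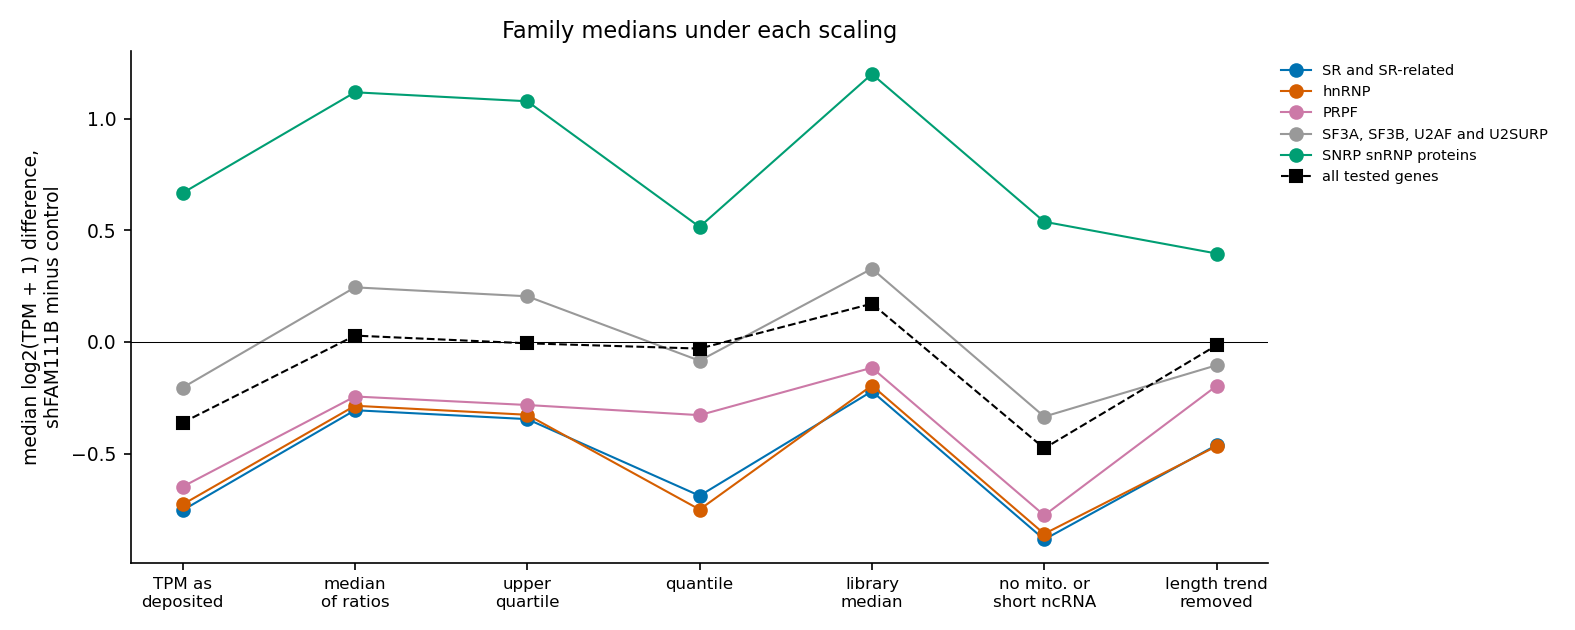
Median log2(TPM + 1) difference of each family and of all tested genes (black squares) on the deposited scale, under 5 other scalings and after removal of the trend with length and expression. The SNRP median stays between 0.40 and 1.20, the SR, hnRNP and PRPF medians stay below 0, and the median of the SF3A, SF3B, U2AF and U2SURP genes changes sign.

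Gene-level TPM pool all transcripts of a gene. In the annotation, all 16 SR genes have a transcript marked for nonsense-mediated decay, as do 13 of 21 tested hnRNP genes and 4 of 11 SNRP genes, against 44.5% of tested protein-coding genes. Retained-intron transcripts are annotated for 13 SR, 14 hnRNP and 5 SNRP genes, against 57.9%. Which of these forms changed is not analysed here. Processed pseudogenes of 33 members (200 entries, 67 of them above 0) held at most 7.96% of the parent's mean TPM. Adding them to the parent left the counts of calls at 4 higher and 17 lower.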

How the data were processed

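The authors deposited TPM per library, group means, and their own comparison of the groups (fold ratios, linear and log2, with raw and corrected p-values), which was not used. Per the labels, libraries were poly(A)-selected with a stranded kit, whereas the paper names a TruSeq kit. The submitters' processing notes name RSEM, DESeq2 and hg38 without their roles. Whether counting used strand is not given in the sources used here. The depth is unknown, so no counting interval can be given.

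TPM were filtered (at least 1 TPM in at least 3 libraries), and log2(TPM + 1) was fitted in limma 3.58.1 (R 4.3.3; lmFit, eBayes with a trend, no covariate), with Benjamini-Hochberg adjustment over 14394 genes. "Rose" and "fell" mean an adjusted p under 0.05. Lengths and positions came from GENCODE release 29. Alternatives were other scalings, a pseudocount of 0.1, other filters, a replicate block, each library left out, the length trend removed (loess, span 0.75) and pseudogenes added. The script was tested on simulated data. No 2 libraries shared over 0.889% of identical values.

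Members and lists were chosen with earlier results of these data known. Named genes were FAM111B, up to 3 rises and 3 falls per family (adjusted p under 0.05, mean of at least 10 TPM, groups apart), 19 fixed members, and 1 rise and 1 fall per other list. Other names were added after their values were seen, and some results are not reported here. Python 3.11.15 (pandas 2.3.3, scipy 1.17.1, numpy 2.4.6) made the tables and matplotlib 3.10.9 the figures.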

Additional observations from a re-analysis of the deposited data

Results flagged for a closer look

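The spliceosomal snRNAs themselves lie outside the comparison, since they lack the poly(A) tail on which the libraries were selected. Their 21 listed entries, summed, were above the control level in every shFAM111B library. They held 232, 255 and 0 TPM in control and 2858, 4122 and 456 TPM in shFAM111B libraries, so the lowest shFAM111B library was at 456 TPM. The U5 gene RNU5A-1 was listed at 0 in the 3 control libraries and at 357, 890 and 68.2 TPM in the shFAM111B libraries. The libraries of a group differed widely, and shFAM111B replicate 3 was far below the others of its group. The sum was not tested, and no test of a single snRNA entry is given.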

How the results depend on the processing

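The depth behind the TPM is unknown. Scaling was the choice that moved the counts most. With median-of-ratios, upper-quartile and library-median scaling, the 2-fold calls were 9, 9 and 10 higher and 7, 7 and 5 lower members, 30, 28 and 32 members rose, 34, 34 and 28 fell (of all genes 35.8%, 34.3% and 41.6% rose and 35.2%, 36.4% and 29.4% fell), and the member median was -0.11, -0.15 and -0.031. It was -0.69 without mitochondrial and short non-coding RNA. With the length trend removed there were 2 higher and 6 lower calls and the median was -0.29. Under those first 3 scalings in the same order the median of the SF3A, SF3B, U2AF and U2SURP genes was 0.24, 0.20 and 0.33, SRSF3 was at 0.36, 0.32 and 0.44, HNRNPA1 at 0.078, 0.037 and 0.16, HNRNPC at 0.20, 0.15 and 0.27, SF3B1 at 0.34, 0.30 and 0.42, and PRPF19 at 0.15, 0.11 and 0.23. CDC40 was at 0.053 with the library median. Quantile normalization gave -0.050 for SRRM2, -0.061 for SNRPB and 0.045 for CDC40. Without mitochondrial and short non-coding RNA, U2AF1 was at -0.031 and PRPF8 at -0.11. With the length trend removed, SF3B6 was at -0.48, SRSF3 at 0.14, SF3B1 at 0.46 and CDC40 at 0.21. The cause of these reversals was not tested. Leaving out 1 library gave 4 to 5 higher and 17 to 18 lower calls, 12 to 14 rises, 45 to 46 falls and member medians of -0.60 to -0.54. PRPF8 was between -0.012 and 0.062 and SF3B1 between -0.23 and 0.071. SNRPD3 was the only passing member to lose its call, and the cause was not tested. The pseudocount, filters, added pseudogenes and adjusted p with the same fold left the 5 main values within 1.5 times or the spread between libraries. Same-numbered libraries of the groups did not deviate together (correlations of 0.054, 0.035 and 0.091), so the numbers do not pair them. The fit with the replicate block gave 4, 17, 13 and 45 members and a median of -0.56.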
